A study of Mus musculus with 4 samples.

Results

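Smooth muscle contractile genes and tropomyosins were followed through 4 mouse mammary tumor cell lines profiled by RNA sequencing (RNA-seq). The 10 genes were listed by name (Acta2, Actg2, Tagln, Cnn1, Cnn2, Cald1, Tpm1, Tpm2, Tpm3 and Tpm4) and all 10 were found among the 21090 genes of the table. The lines came from a sarcomatoid mammary tumor with lung metastasis of a Pik3caH1047R;Trp53R270H;MMTV-Cre mouse, in which Cre is driven by the MMTV promoter, so every line carries both activated Pik3ca and mutant Trp53. The 2 controls were the parental line and a line with the vector control, and in the 2 knockouts Cas9 had been directed to exon 3 or to exon 2 of S100a4, by lentivirus and puromycin selection. S100a4 encodes a small calcium-binding protein associated with metastasis, and the comparison asks what differs in a metastatic line after its disruption. Each line is 1 library, so p-values measure the spread between lines that also differ in their handling. The labels call the cells 308 in the exon 2 knockout and 307 in the other libraries, whereas the study describes 1 line as the origin of both knockouts. The parental line had not been through virus or selection, as far as the study's methods state.

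Smooth muscle cells shorten by sliding myosin along actin filaments that are dressed with accessory proteins. Acta2 encodes smooth muscle alpha-actin and Actg2 its enteric gamma counterpart. Transgelin (Tagln, SM22) and the calponins (Cnn1, Cnn2) bind the filament, caldesmon (Cald1) restrains myosin on it, and tropomyosins (Tpm1 to Tpm4) run along its groove and set which partners can bind. Outside muscle, shorter isoforms of caldesmon and the tropomyosins and the more widely expressed calponin 2 belong to stress fibers. Acta2, Tagln and Cnn1 are also used as markers of myoepithelial cells, myofibroblasts and cells in epithelial-mesenchymal transition. Serum response factor (Srf) binds CArG boxes in many of these genes together with the myocardin family (Myocd, Mkl1, Mkl2), and TEAD factors bind the MCAT element.

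Among the listed genes with a mean of at least 1 RPKM, Acta2 had the widest gap between the controls. To show those elements, the 250 bases upstream of its RefSeq start are printed 5′ to 3′ on the minus strand (chr19:34255374-34255623, GRCm38.p6). The GENCODE bounds given below for Acta2 start at 34255590 on this strand. By those bounds most of the stretch, with all its marked matches, lies inside the gene. Capitals mark an MCAT match (GGAATG, the other strand of CATTCC) 146 bases before the start and a pair of near matches to the CArG box, CCCTATATGG at 84 and CCTTGTTTGG at 34 bases before it, each with 1 central base that is neither A nor T. The 100 bases upstream of the RefSeq start of Cnn2 (chr10:79988500-79988599, plus strand) follow. Cnn2 alone among the genes with a promoter entry had an exact CArG box, CCTTATAAGG. It lies 56 bases before that start, in capitals. GENCODE starts Cnn2 at 79988584, within the printed stretch and after the CArG box.
Acta2: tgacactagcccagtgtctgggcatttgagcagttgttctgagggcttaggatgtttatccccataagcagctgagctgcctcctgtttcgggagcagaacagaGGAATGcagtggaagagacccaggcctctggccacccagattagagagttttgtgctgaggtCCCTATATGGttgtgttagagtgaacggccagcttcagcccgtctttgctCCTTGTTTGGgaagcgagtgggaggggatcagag
Cnn2: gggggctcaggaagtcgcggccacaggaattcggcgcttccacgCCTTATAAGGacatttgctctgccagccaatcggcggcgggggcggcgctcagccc
Promoter windows were found for 8 of the 10 genes in the RefSeq table, 10 windows in all, and both strands were searched. An exact CArG box was present in 1.63% of all 32851 promoter windows of the same length, one with at most 1 central base changed in 9.98%, and the MCAT element in 14.7%. In the other windows, Tpm1 had an MCAT match 56 bases before its start and Cald1 had one 153 bases before one of its starts. Tpm3 had a near match to the CArG box at 66 and at 57 bases before its 2 starts. These matches are letters in a window, and no binding was measured.

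Actin genes are so alike that the assignment of reads between them matters for Acta2. The last 75 coding bases of 4 actins are printed in coding sense (GRCm38, minus strand of chr19:34241670-34241744, chr6:83512988-83513062, chr5:142903801-142903875 and chr11:120346393-120346467), with capitals where a gene differs from Acta2.
Acta2: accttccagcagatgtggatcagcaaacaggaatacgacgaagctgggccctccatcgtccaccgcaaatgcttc
Actg2: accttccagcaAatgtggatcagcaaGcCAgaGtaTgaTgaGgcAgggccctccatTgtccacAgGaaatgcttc
Actb: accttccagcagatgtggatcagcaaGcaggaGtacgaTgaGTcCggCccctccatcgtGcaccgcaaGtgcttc
Actg1: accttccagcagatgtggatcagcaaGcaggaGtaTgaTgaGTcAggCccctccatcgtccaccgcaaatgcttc
Against Acta2, this stretch differed at 12 bases in Actg2, at 9 in Actb and at 8 in Actg1, and the whole coding sequence was equal at 83.8%, 83% and 81.7% of bases, respectively. No 75-base window of the Acta2 or Actg2 coding sequence occurred in a transcript of another annotated gene, so reads of that length can be told apart without mismatches.

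Levels are given as RPKM (reads per kilobase of gene, scaled to sequencing depth), a unit meant for comparing levels between genes. Such comparisons are uncertain for genes that share sequence with others, given below for Actg1, Tagln, Tpm3 and Tpm4. Totals behind them were between 22472024 and 31235456 reads, and between 65.8% and 67.7% of them fell in genes. S100a4, the target of the edit, was at 3576 RPKM in parental cells, 4741 with the vector, 1136 after the exon 3 edit and 1105 after the exon 2 edit. The knockouts kept 27.3% and 26.6% of the control mean in transcript level (limma log2 change -1.88, SE 0.311, adjusted p = 0.0731). What remained is not a measure of remaining protein. The study reported truncating mutations in most S100a4 transcripts of the knockout lines, and loss of the protein by Western blot.

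Tropomyosin 1 was the most abundant of the 10 genes in every library, and calponin 2 followed it except in the vector control, where Acta2 took that place. In such bulk libraries, fewer cells of a type and less RNA per cell cannot be told apart. Of the 10 genes, 8 had a mean of at least 1 RPKM and entered the test, while Actg2 and Cnn1 did not. None of the 8 passed an adjusted p of 0.05 between knockouts and controls, with adjusted p from 0.181 to 0.993 in limma. At an unadjusted p under 0.05 there were 2, Cald1 and Tpm4. Across all 10871 genes tested, 2 passed (0.0184%), and 2076 had an unadjusted p under 0.05. In 3 of the 8 genes (Cald1, Tpm3 and Tpm4) both knockouts lay under both controls, an arrangement seen in 31.2% of all tested genes. In 0 of the 8 did both knockouts lie over both controls, against 21.9% of all tested genes. These shares depend on the scaling, since 3395 genes lay under and 2384 over both controls as deposited, and 2618 and 3023 after quantile normalization. The median log2 change of the 8 was -0.41 beside -0.08 for all tested genes. Of the 8, 5 were lower and 3 higher, beside 5974 lower and 4897 higher of all 10871 tested genes.

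**Figure D1:**
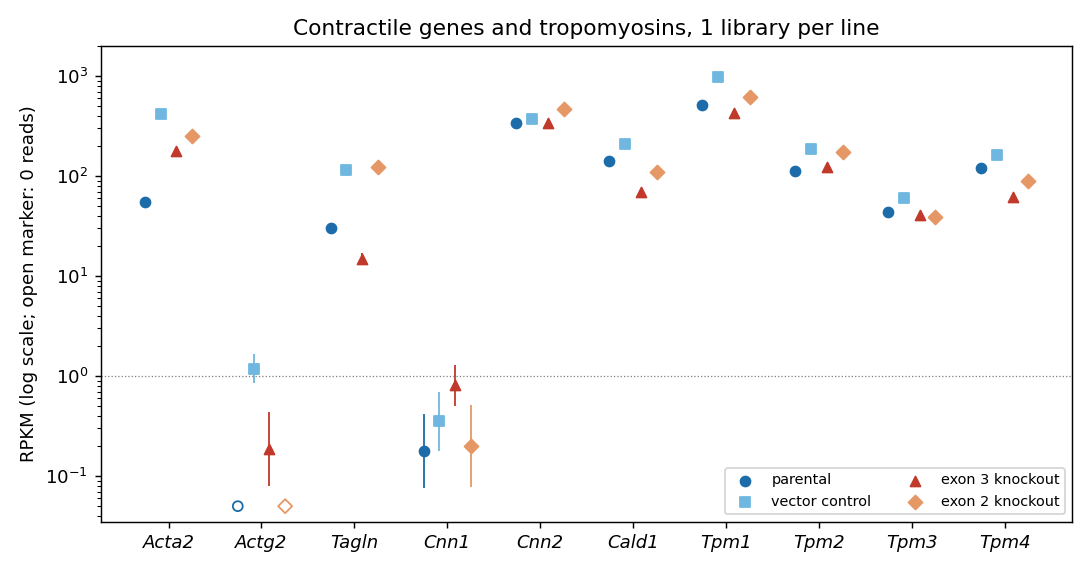
RPKM on a log axis for the 10 genes in the 4 libraries, with bars for the 95% Wilson interval of the reads (counting error only, mostly smaller than the marker), open markers at the foot for 0 reads and a dotted line at 1 RPKM. Acta2 and Tagln spread over more than 7-fold between libraries, Cnn2 stayed between 341 and 473 RPKM, and Actg2 and Cnn1 lay near or below the line.

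Acta2, smooth muscle alpha-actin (chr19:34241090-34255590, minus strand, GRCm38), was at 55.2 RPKM in parental cells, 420 with the vector, 178 after the exon 3 edit and 252 after the exon 2 edit. The parental line was the lowest and the vector control the highest, with both knockouts between them. The means were 238 ± 258 RPKM in controls and 215 ± 52.4 in knockouts (SD, n = 2 each), and the log2 change was 0.47 (SE 0.682, 95% interval -1.03 to 1.97, adjusted p = 0.726, limma). The linear means thus put the knockouts lower and the means of logs put them higher, so Acta2 has no settled direction here. The vector control exceeded the parental line 7.61-fold (95% interval of the 2 libraries' reads 7.26 to 7.98, counting error only). The direction of the knockout difference depended on which control was kept. Without the vector control the log2 change was 1.92 (adjusted p = 5.11e-06), and without the parental line it was -0.98 (adjusted p = 0.0444). In both of these limma fits the spread was taken wholly from other genes of like level, and the lone control was assumed to vary like the knockouts.

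Acta2 can be set against Actb, the cytoplasmic beta-actin, which was at 1376, 1968, 1414 and 1788 RPKM in the parental, vector control, exon 3 and exon 2 lines (log2 change -0.05, SE 0.324, adjusted p = 0.953). Acta2 transcripts amounted to 4.01% of Actb in parental cells, 21.3% with the vector, 12.6% after the exon 3 edit and 14.1% after the exon 2 edit. Acta2 thus differed between lines also relative to the main cytoplasmic actin. Actg1, cytoplasmic gamma-actin, was listed at 7.66, 13.2, 9.14 and 5.84 RPKM in the same order (log2 change -0.41, adjusted p = 0.559). Its value is uncertain, since 97.1% of the 75-base windows of its coding sequence also occur in 10 other annotated genes, the pseudogene Actg-ps1 among them.

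Actg2, enteric smooth muscle gamma-actin (chr6:83512905-83536265, minus strand), had 0 reads in parental cells, 34 with the vector (1.18 RPKM), 5 after the exon 3 edit (0.188 RPKM) and 0 after the exon 2 edit. The vector control was the only library above 1 RPKM. With 3 reads taken as the limit that a count of 0 allows, the vector control value was 13.9-fold over that limit in the parental line. It was 10-fold over the limit in the exon 2 knockout. These ratios leave out the counting error of the 34 reads (95% interval 0.847 to 1.65 RPKM). The vector control held the highest level of both Acta2 and Actg2. The striated muscle actins were also low, with Acta1 (skeletal) at most at 1.43 RPKM and Actc1 (cardiac) at most at 0.0392.

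Tagln, transgelin (chr9:45929619-45936058, minus strand), was at 29.9 RPKM in parental cells, 115 with the vector, 14.8 after the exon 3 edit and 122 after the exon 2 edit. The exon 3 knockout lay under both controls and the exon 2 knockout over both. The means were 72.4 ± 60 RPKM in controls and 68.2 ± 75.5 in knockouts (SD, n = 2 each), with a log2 change of -0.44 (SE 0.794, 95% interval -2.18 to 1.30, adjusted p = 0.786, limma). The knockouts differed 8.2-fold from each other (7.1 to 9.51), whereas the exon 2 knockout and the vector control were 1.06-fold apart (0.99 to 1.13). Without the exon 3 knockout the log2 change was 1.04 (adjusted p = 0.691), and without the vector control it was 0.51 (adjusted p = 0.466). Without the parental line it was -1.39 (adjusted p = 0.00484), in a fit that again did not use the gap of 2.95 between the knockouts of this gene.

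Tagln did not follow Acta2 across the 4 lines. Its level was 54.2% of Acta2 in parental cells, 27.3% with the vector, 8.31% after the exon 3 edit and 48.2% after the exon 2 edit. Within the Tagln coding sequence, 59.4% of 75-base windows are shared with an antisense gene, Gm48529, which overlaps it. No other annotated gene shared such a window. Pcsk7, a neighbor on the opposite strand that overlaps Tagln exons but shared none of these coding windows, was at 13.3, 18.1, 12.3 and 11.7 RPKM in the order of the lines above. The strand setting of the counting is not stated.

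Cnn1, calponin 1 (chr9:22099216-22109630, plus strand), was at 0.179 RPKM in parental cells, 0.352 with the vector, 0.81 after the exon 3 edit and 0.199 after the exon 2 edit, from 5, 8, 17 and 4 reads. The exon 3 knockout was the highest, 4.52-fold over the parental line (1.6 to 15.7). All 4 libraries were below 1 RPKM. Cnn2, calponin 2 (chr10:79988584-79996062, plus strand), was at 341, 374, 343 and 473 RPKM in the same order of lines, the narrowest range of the 8 tested genes (1.39-fold). Its means were 357 ± 23.6 RPKM in controls and 408 ± 92.3 in knockouts (SD, n = 2 each), and its log2 change was 0.17 (SE 0.304, 95% interval -0.49 to 0.84, adjusted p = 0.78, limma). Cnn2 turned to -0.06 after quantile normalization and to -0.19 after correction for GC content and length, so it has no settled direction. Cnn3, acidic calponin and the third member of the family, was at 287, 363, 256 and 225 RPKM (log2 change -0.42, SE 0.297, adjusted p = 0.448). The ratio of Cnn2 to Cnn3 was 1.19 in parental cells, 1.03 with the vector, 1.34 after the exon 3 edit and 2.1 after the exon 2 edit.

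Cald1, caldesmon (chr6:34598500-34775473, plus strand), was at 141 RPKM in parental cells, 209 with the vector, 69.7 after the exon 3 edit and 111 after the exon 2 edit. Both knockouts were lower than both controls, and the nearest pair, the parental line and the exon 2 knockout, stood 1.27-fold apart. The means were 175 ± 47.8 RPKM in controls and 90.5 ± 29.3 in knockouts (SD, n = 2 each). The log2 change of -0.96 (SE 0.34, 95% interval -1.70 to -0.21) had an unadjusted p of 0.0162 and an adjusted p of 0.183 in limma, and the exact two-sided permutation p was 0.33, the smallest that 2 against 2 allows. Cald1 amounted to 27.3% of Tpm1 in parental cells, 21.5% with the vector, 16.2% after the exon 3 edit and 18% after the exon 2 edit. With a library left out, Cald1 passed the threshold only without the parental line (-1.24, adjusted p = 0.00962, on the same terms as for Acta2). The log2 change was -0.68 without the vector control (adjusted p = 0.253), -0.63 without the exon 3 knockout (adjusted p = 0.734) and -1.29 without the exon 2 knockout (adjusted p = 0.242). Cald1 has 11 annotated coding transcripts, and a value per gene does not separate the long smooth muscle form from the short form of other cells.

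**Figure D2:**
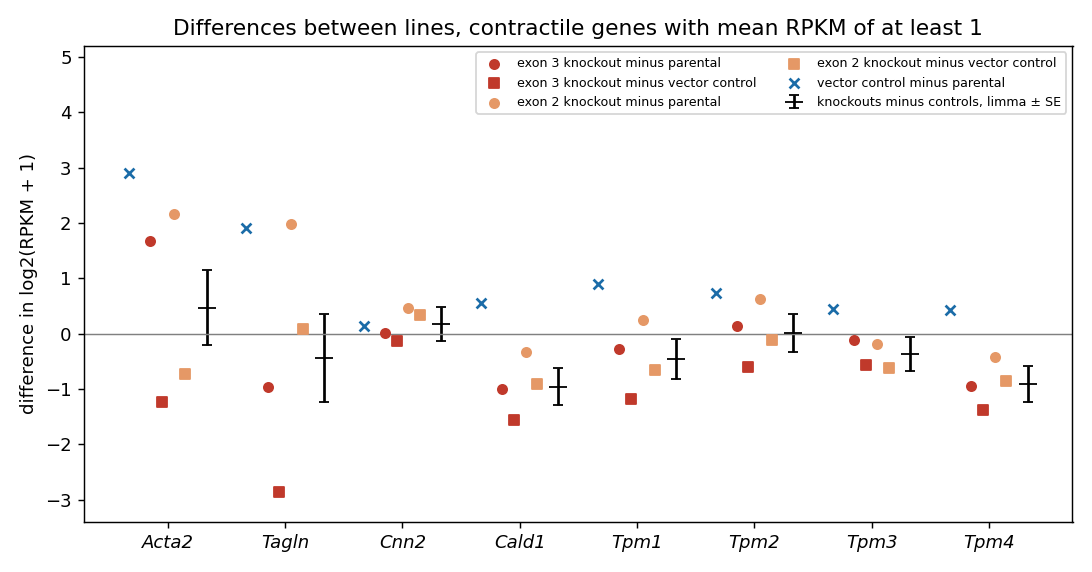
Differences in log2(RPKM + 1) for the 8 tested genes, with colored circles and squares for each knockout minus the parental line or the vector control, a blue cross for the vector control minus the parental line and a black bar for the limma change ± SE. All 4 knockout values of Cald1, Tpm3 and Tpm4 lie below 0, while those of Acta2 run from -1.23 to 2.17 and those of Tagln from -2.87 to 1.99.

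Tropomyosin transcripts summed to 796 RPKM in parental cells, 1383 with the vector, 655 after the exon 3 edit and 917 after the exon 2 edit. Tpm1 made up most of the sum, with 65.2%, 70.3%, 65.6% and 67.2% in that order. The share of Tpm2 was 14.1% and 13.6% in the controls and 18.8% in each knockout. The share of Tpm4 was 15.2% and 11.8% in the controls and 9.45% and 9.73% in the knockouts. The groups did not overlap for these 2 of the 4 shares, an arrangement that single gene levels took in 31.2% (under) and 21.9% (over) of tested genes. The level of Tpm2 itself had a log2 change of 0.01, beside -0.46 for Tpm1, -0.37 for Tpm3 and -0.91 for Tpm4. That does not hold for each pair of lines. The exon 2 knockout exceeded the parental line in the sum, in Tpm1 (617 against 519 RPKM) and in Tpm2 (173 against 112 RPKM). Tpm3 held 5.54%, 4.35%, 6.16% and 4.21%, overlapping between groups. The sum and the shares rest on how reads shared between genes were counted, which is not stated. Of 75-base coding windows, 68.9% of Tpm3 and 37.9% of Tpm4 also occur in other annotated genes, and 0% of Tpm1 and Tpm2.

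**Figure D3:**
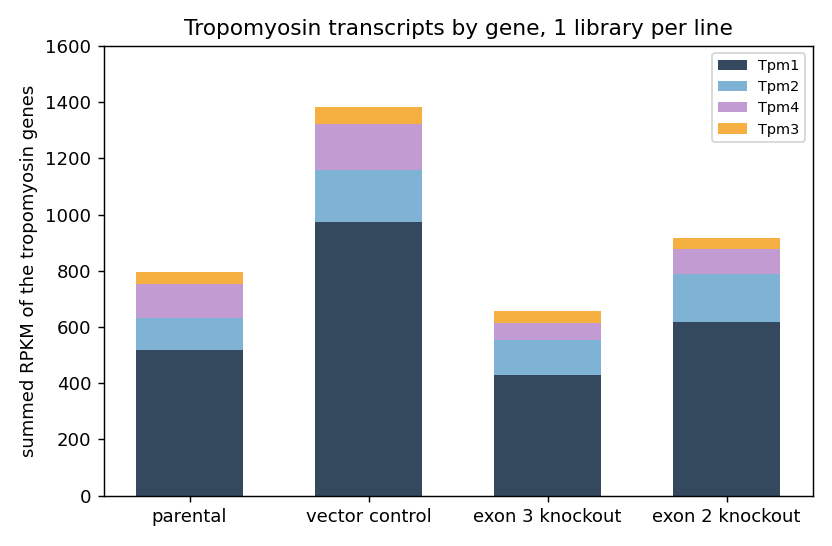
Stacked RPKM of Tpm1, Tpm2, Tpm4 and Tpm3 in each library, from 0. The vector control has the tallest bar (1383 RPKM) and the exon 3 knockout the shortest (655), and Tpm1 is the largest block in all 4 libraries.

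Tpm1 (chr9:67022590-67049406, minus strand) was at 519 RPKM in parental cells, 972 with the vector, 430 after the exon 3 edit and 617 after the exon 2 edit. The vector control was the highest and the exon 2 knockout lay between the controls. The means were 746 ± 321 RPKM in controls and 523 ± 132 in knockouts (SD, n = 2 each), with a log2 change of -0.46 (SE 0.363, 95% interval -1.26 to 0.33, adjusted p = 0.497, limma). The controls were 1.87-fold apart (1.84 to 1.9) and the knockouts 1.43-fold (1.41 to 1.46). Its log2 change was -0.01 without the vector control (adjusted p = 0.991) and -0.92 without the parental line (adjusted p = 0.0603), so its size rests on the choice of control. Tpm1 has 18 annotated coding transcripts, which the gene value sums.

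Tpm2, beta-tropomyosin (chr4:43514711-43523765, minus strand), was at 112 RPKM in parental cells, 188 with the vector, 123 after the exon 3 edit and 173 after the exon 2 edit, both knockouts between the controls. Its means were nearly equal, at 150 ± 53.2 RPKM in controls and 148 ± 35 in knockouts (SD, n = 2 each), and its log2 change was 0.01 (SE 0.34, 95% interval -0.74 to 0.75, adjusted p = 0.993, limma). It turned to -0.17 with quantile normalization and to -0.25 with the GC and length correction.

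Tpm3, the slow muscle and cytoskeletal tropomyosin (chr3:90072649-90100902, plus strand), was at 44.1 RPKM in parental cells, 60.1 with the vector, 40.4 after the exon 3 edit and 38.6 after the exon 2 edit. Both knockouts were lower than both controls, by 1.09-fold at the nearest pair. The knockouts themselves were not distinguishable beyond counting error (ratio 0.956, 0.879 to 1.04). The log2 change was -0.37 (SE 0.306, 95% interval -1.05 to 0.30, adjusted p = 0.518, limma), and it ran from -0.59 to -0.16 with a library left out, the latter without the vector control. Of its 75-base coding windows, 68.9% also occur in Tpm3-rs7 or in the pseudogenes Gm4157, Gm7839 and Gm7848, so its level is uncertain.

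Tpm4, a cytoskeletal tropomyosin of stress fibers (chr8:72134975-72153142, plus strand), was at 121 RPKM in parental cells, 163 with the vector, 61.9 after the exon 3 edit and 89.3 after the exon 2 edit. As with Cald1, both knockouts lay under both controls, here with 1.35-fold between the nearest pair. The means were 142 ± 30 RPKM in controls and 75.6 ± 19.4 in knockouts (SD, n = 2 each), with a log2 change of -0.91 (SE 0.32, 95% interval -1.61 to -0.21, unadjusted p = 0.0158, adjusted p = 0.181, limma). Tpm4 too passed the threshold only without the parental line (-1.12, adjusted p = 0.0259, again on those terms). The log2 change was -0.69 without the vector control (adjusted p = 0.247), -0.65 without the exon 3 knockout (adjusted p = 0.716) and -1.17 without the exon 2 knockout (adjusted p = 0.265). The overlapping antisense gene Gm26586 and the pseudogene Gm7809 share 37.9% of its 75-base windows, 29% with Gm7809.

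Between the 2 controls, all 8 tested genes were higher in the vector control than in the parental line, with a median log2 difference of 0.65 beside 0.16 for all tested genes, of which 63.4% were higher. Cnn2 was no longer higher after median ratio scaling or quantile normalization, while the other 7 were. Between the 2 knockouts, 7 of 8 were higher in the exon 2 line, all but Tpm3 (median log2 difference 0.51 beside 0.05, 54.4% of all tested genes higher). Relative to the vector control, all 8 were lower in the exon 3 knockout, with Acta2, Tagln, Cald1, Tpm1 and Tpm4 lower by at least 2-fold, while 57.2% of all tested genes were lower and 1690 of 10871 had a log2 difference below -1. In the exon 2 knockout 6 of 8 were lower than in the vector control, beside 58.4% of all tested genes. Relative to the parental line, 5 of 8 were lower in the exon 3 knockout (52.5% of all tested genes) and 3 of 8 in the exon 2 knockout (51%), counts near those shares. These comparisons share libraries and rest on 1 library each, so no test was made. The 10 genes summed to 1364 RPKM in parental cells, 2503 with the vector, 1262 after the exon 3 edit and 1876 after the exon 2 edit.

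Around these genes, 37 other genes of the contractile apparatus were listed by textbook role. Of these, 28 were tested and 0 passed an adjusted p of 0.05 in limma. An unadjusted p under 0.05 was seen in 8 of the 28, beside 2076 of all 10871 tested genes. Both knockouts lay under both controls in 10 of the 28 and over both in 4, beside 31.2% and 21.9% of all tested genes, and the median log2 change was -0.18. The same shares apply to the single lists that follow, and no list was tested. Other proteins of the filament and its anchors held 6 of these 10, among 12 tested. Of the 8 tested genes of smooth muscle myosin, its light chains, kinase and phosphatase, 2 lay under and 2 over. Of the 5 tested transcription factors 2 lay under and 1 over, and the 2 other actins and the 1 capping protein tested overlapped between groups.

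Several genes most restricted to muscle were barely detected. Myh11, the smooth muscle myosin heavy chain, was at 0.059, 0.119, 0.0856 and 0.0224 RPKM in the parental, vector control, exon 3 and exon 2 lines, from 11, 18, 12 and 3 reads. Desmin (Des) reached at most 0.545 RPKM and leiomodin (Lmod1) at most 0.0661. Other genes that smooth muscle expresses were well above the filter. Smoothelin (Smtn), a filament-binding protein, was at 104, 48.7, 128 and 68.6 RPKM in the same order, and Csrp1, a LIM domain protein, was at 130, 367, 252 and 183. Genes of smooth muscle were thus a mixture of abundant (Acta2, Tagln, Smtn, Csrp1) and nearly absent ones (Myh11, Cnn1, Actg2, Des, Lmod1). Tmod1, which caps the slow end of actin filaments, was at 0.454 and 0.623 RPKM in the controls and at 0.177 and 0.222 in the knockouts. Its nearest pair stood 2.04-fold apart, but it was below the filter and rested on 5 and 6 reads in the knockouts.

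**Figure D4:**
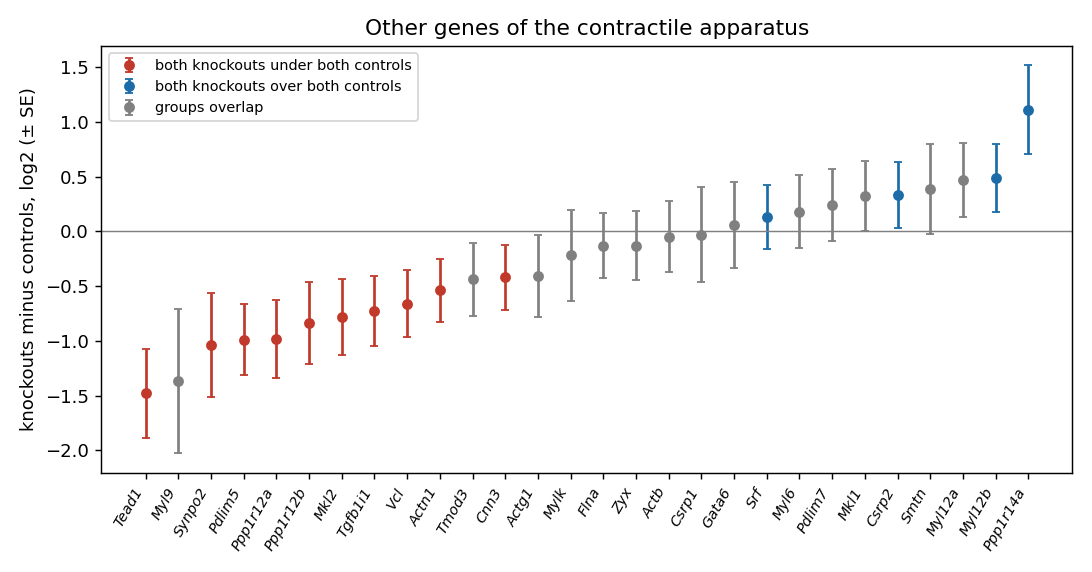
Limma log2 change of knockouts minus controls ± SE for the 28 tested genes of the related lists, ordered by value, with color for genes whose knockouts lie under or over both controls. Values run from -1.48 for Tead1 to 1.11 for Ppp1r14a, and 0 of the 28 passed an adjusted p of 0.05.

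Among the transcription factors, Srf was at 36.3, 37.2, 38.4 and 42.1 RPKM in the parental, vector control, exon 3 and exon 2 lines (log2 change 0.13, SE 0.295, adjusted p = 0.837). Its coactivator Mkl1 (MRTF-A) was at 38.5, 26.3, 36.7 and 43.4 RPKM (log2 change 0.32, adjusted p = 0.599). Neither transcript level followed that of Acta2, which was highest in the vector control where Mkl1 was lowest. The activity of these factors was not measured, and their part in the level of Acta2 was not tested. Mkl2 (MRTF-B) was at 6.9 and 5.22 RPKM in the controls and at 3 and 3.19 in the knockouts (log2 change -0.78, SE 0.348, adjusted p = 0.255). Myocd, the muscle-restricted coactivator, had 0 reads in all 4 libraries. Tead1, singled out after its values were seen, was at 33.7, 15.1, 5.98 and 9.27 RPKM in the order above, with both knockouts under both controls (log2 change -1.48, SE 0.405, adjusted p = 0.13).

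The genes whose pattern over the 4 libraries was closest to that of Acta2 among 10863 other tested genes, by Euclidean distance of mean-centered log2(RPKM + 1), were the linker histone H1fx (0.387), the transcription factor Fos (0.595), Oasl1 (0.625), Fxyd2 (0.733) and Rsad2 (0.781). H1fx was at 1.58 RPKM in parental cells, 16.3 with the vector, 9.62 after the exon 3 edit and 11.9 after the exon 2 edit. For Tagln they were Myl9 (1.05), Il2rg (1.1), Insc (1.17), Tnnt2 (1.18) and Mx2 (1.18), all farther off than the 5 nearest to Acta2. Myl9, the regulatory light chain of smooth muscle myosin, was at 44 RPKM in parental cells, 123 with the vector, 11.6 after the exon 3 edit and 65.5 after the exon 2 edit (log2 change -1.37, SE 0.659, adjusted p = 0.283). It was lowest in the exon 3 knockout, as Tagln was, but did not exceed the vector control in the exon 2 knockout. With 4 libraries, such distances only describe these lines.

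Markers of other cell types were read beside these values. All 5 basal or myoepithelial markers (Krt5, Krt14, Krt17, Trp63 and Oxtr) were at or below 0.243 RPKM, and their sum was between 0.237 and 0.498 per library. The 7 pericyte and vascular smooth muscle markers summed to between 59.9 and 80 RPKM, nearly all of it Pdgfrb (56.8 to 76.1). Skeletal muscle markers summed to at most 1.43 RPKM with Myod1 and Myog at 0, and endothelial markers to at most 0.433. Leukocyte Ptprc and Cd3e were at or near 0, although Cd68 was at 4.92 and 3.36 RPKM in the controls and at 11.5 and 13.2 in the knockouts.

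The mesenchymal list summed to 3905 RPKM in parental cells, 2222 with the vector, 1717 after the exon 3 edit and 1943 after the exon 2 edit. Vimentin (Vim) was at 2418, 2060, 1362 and 1721. Of the same list, Thy1 reached at most 1.51 RPKM (parental cells) and Fap at most 0.207 (vector control). Luminal markers summed to 130, 34.3, 107 and 74.7 RPKM, nearly all of it Krt8 and Krt18, with Krt19, Epcam and Cdh1 each at or below 0.657. Collagen Col1a1 was at 670, 6.93, 54.3 and 24.2 RPKM, Col1a2 at 808, 149, 297 and 194, and keratin Krt18 at 60.2, 6.1, 27.3 and 19.1. For these genes, singled out after their values were seen, the lines took the reverse of their order for Acta2. Other genes of the same lists went another way, with Krt8 at 69, 27.5, 78.9 and 54.8 RPKM (highest in the exon 3 knockout) and Pdgfra at 7.13, 6.02, 4.25 and 2.71, and Vim as given above. The part of such differences between lines in the levels of Acta2 was not tested.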

How the data were processed

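RNA was taken from 4 mouse mammary tumor lines, 1 library each, and groups followed the sample titles. Replicate numbers only name the libraries. The authors deposited RPKM per gene on a linear scale in 1 table. All 4 of its value columns were matched to a library, and 0 were left over. The labels name a stranded total RNA kit. The submitters' processing notes name CASAVA 1.8, GSNAP and GRCm38, and the counting rule and gene model are not given in the sources used here. RPKM values of 100% of 15405 genes above 0 came out as whole reads in all 4 libraries (tolerance 0.001 reads). This share is no check for genes with reads in few of the libraries, where a fitting whole number is always or nearly always found. The length implied by RPKM was scaled by the whole number that brought it nearest to the annotated length. Of 10780 tested genes with an annotated coding sequence, it equaled a GENCODE M21 coding length, or that length plus 3 bases, in 58.29%. The scale of the reads thus rests on coding length. For some genes it was longer than any annotated coding length, such as Acta2 (1169 against 1131 bases), Cald1 (2606 against 2471) and Tpm1 (1560 against 1426). Intervals from reads (95%, Wilson for a level, exact for a ratio) and the limit of 3 reads cover counting error only.

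Values were analysed as log2(RPKM + 1), which understates changes of low genes. Genes with mean RPKM of at least 1 (10871) were tested with limma 3.58.1 in R 4.3.3 with an intensity trend, 2 knockouts against 2 controls, no covariates, Benjamini-Hochberg adjustment over all tested genes and a threshold of 0.05. All adjusted p-values are from limma. The smallest exact permutation p for 2 against 2 is 0.33. The fit was tested on simulated data. Tables and plots used Python 3.11.15 with pandas 2.3.3, numpy 2.4.6, scipy 1.17.1 and matplotlib 3.10.9.

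All 10 genes are named. Of the related genes, those called, those at least 2-fold beyond both controls, and Actb, Actg1, Cnn3, Myh11, Srf, Mkl1, Mkl2 and Myocd are named, and for Acta2 and Tagln the 5 genes of closest pattern. Acta1, Actc1, Des, Lmod1, Smtn, Csrp1, Tead1 and Ppp1r14a are named beyond that rule, with their values seen. The genes and lists were chosen with earlier results of these data known. Sharing of sequence was counted in 75-base windows of the longest coding sequence against all GENCODE M21 transcripts. Promoter windows are from RefSeq (GRCm38.p6). Alternatives were a pseudocount of 0.1, median ratio scaling, quantile normalization, no filter, a minimum mean RPKM of 5, limma with no trend, limma with its robust prior, voom on the recovered reads, a GC and length correction, and leaving out each library in turn.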

Additional observations from a re-analysis of the deposited data

Results flagged for a closer look

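Tagln was the single tested gene of the 8 in which the library of one knockout line (exon 3) lay under both controls and that of the other (exon 2) over both. The exon 3 knockout minus the exon 2 knockout was -2.95 on the log2(RPKM + 1) scale. With 1 library per knockout line the difference was not tested. Among all 10871 tested genes, 857 (7.88%) were arranged in this way in one direction or the other.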

How the results depend on the processing

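Of 104 values of single genes under 13 alternatives, 90 kept their direction and their side of the threshold, 10 changed sign and 4 passed it with the same sign. Of the 10, 1 (Acta2 without the parental line) also passed it, which makes 5 past the threshold. Cald1, Tpm1, Tpm3 and Tpm4 had negative values throughout, but with a library left out they ranged from -1.29 to -0.63, from -0.92 to -0.01 (without the vector control), from -0.59 to -0.16 and from -1.17 to -0.65. Cnn2 turned to -0.06 and Tpm2 to -0.17 with quantile normalization, and to -0.19 and -0.25 with the GC and length correction. With each library left out in turn, Acta2 ranged from -0.98 to 1.92, Tagln from -1.92 to 1.04, Cnn2 from -0.06 to 0.41 and Tpm2 from -0.36 to 0.38. The median over the 8 genes then ranged from -0.95 to 0.11. Beside 4431 to 5140 of all 10871 tested genes, from 3 to 6 of the 8 then lay under all controls. Beside 3400 to 4113 of all tested genes, from 0 to 3 of the 8 lay over them. Without the vector control 1 was called (Acta2) and without the parental line 4 (Acta2, Tagln, Cald1 and Tpm4), in fits where a gene's own spread was not used. Median ratio scaling placed 1 gene (Cnn2) over both controls, and quantile normalization placed 4 under both, Tpm1 being added. Of all genes, 3395 lay under and 2384 over both controls, against 2618 and 3023 with quantile normalization and 3002 and 2966 with median ratio scaling.

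The number of all genes called, 2, was 1 with a pseudocount of 0.1 or quantile normalization, 0 with median ratio scaling, no filter, voom or the GC and length correction, 32 at mean RPKM of at least 5, 285 with a robust prior, and from 3 to 788 with a library left out. The median change of all genes moved from -0.08 to 0.04 with quantile normalization. Depth limits Actg2 and Cnn1, with at most 34 and 17 reads. No paired analysis was possible because the numbers of the libraries only follow the order of deposition.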
